A study of Mus musculus with 9 samples.

Results

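The genes described here are 56 genes of mitosis and chromosome segregation, taken by symbol from a fixed list and measured in mouse colon. All 56 were among the 33539 genes of the deposited table, and all 56 passed the filter on low counts that left 19174 genes for testing. The lowest count of any of them in any library was 115. They are grouped below by textbook role into 9 mitotic entry kinases and cyclins, 8 genes of the spindle checkpoint and anaphase, 10 of the kinetochore and centromere, 4 of the chromosomal passenger complex, 12 of the spindle, 5 of the midzone and cytokinesis, and 8 of condensin and chromosome structure.

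Poly(A) RNA of colon tissue was sequenced from 9 male C57BL/6 mice, all wild type and all collected at 84 h, with 3 mice per group. Con mice were not irradiated and had no CF-2, and the vehicle is PBS in the sample labels and saline in the design text. IR mice had 13 Gy, and IR+CF-2 mice had 13 Gy and 4 intraperitoneal doses of CF-2, each of 7.5 mg/kg, the first given 1 h ahead of the radiation and the others at 24, 48 and 72 h. CF-2 is known here only by that code name, and with no group that had CF-2 without irradiation, its effect on unirradiated colon is not covered. The labels give the age as 8 weeks in one place and 6 weeks in another, and the irradiation as abdominal in one and of the total body in the other. Each library is a separate biological replicate by its title, and libraries carry the labels' numbers: Con 2, 3 and 4, IR 2, 3 and 4, and IR+CF-2 1, 2 and 3. Values below follow that order.

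At mitotic entry, cyclin B and CDK1, with the Polo-like and Aurora kinases, drive chromosome condensation and the building of the spindle. Kinetochores then attach each chromosome to spindle microtubules, and the spindle checkpoint holds back the anaphase-promoting complex until every kinetochore is attached. That complex then has securin and cyclin B destroyed, which frees separase to cut cohesin, and the cell divides at the midzone. Transcripts of these genes peak in G2 and M phase, largely through promoter elements bound by the MuvB complex with B-MYB and FOXM1 and by NF-Y. In the colon such dividing cells lie mainly in the lower crypt, and lymphocytes in follicles also divide. In bulk tissue a change in the number of dividing cells and a change in these transcripts per cell cannot be told apart.

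The promoters are shown first because many mitotic promoters are known to share a few short elements. The genes were listed by mitotic role, so the shares below describe that list. Whether these elements bear on the change after irradiation was not tested. RefSeq promoter windows on GRCm38.p6, from 250 bases before to 50 bases after the annotated start, were at hand for 48 of the 56 genes, in 52 windows. The letters TTTGAA, with the rarer variant TTCGAA, are the core of the cell cycle homology region, called CHR letters below. They were searched on both strands, as was CCAAT, the box bound by NF-Y. CHR letters were in 71.2% of the 52 windows and in 19.2% of all 32851 windows of the same length. CCAAT was in 75.0% and 37.4%, and at least 2 copies of CCAAT were in 50% and 11.7%. Windows with both CCAAT and CHR letters made up 61.5% of the members' windows and 7.52% of all windows, and in 1 of the 52 windows these matches shared a base. A match to CHR letters that began within 50 bases of the start was in 63.5% of the members' windows and in 5.31% of all. For 7 of the 48 genes, Pttg1 among them, the window did not hold the 5′ end of the gene in the GENCODE M21 annotation, so it is not shown for Pttg1.

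Windows of 6 genes are printed: Cdk1 and Ccnb1 as the kinase and cyclin of mitotic entry, Plk1 as the gene with the highest level, and Ect2, Smc2 and Ncaph as the genes that passed the test for a rise in IR. They lie at chr10:69352863-69353162 on the minus strand (Cdk1), chr13:100786437-100786736 on the minus strand (Ccnb1), chr7:122159185-122159484 on the plus strand (Plk1), chr3:27153805-27154104 on the minus strand (Ect2), chr4:52438971-52439270 on the plus strand (Smc2) and chr2:127133905-127134204 on the minus strand (Ncaph). Each is written 5′ to 3′ on the strand of its gene, and capitals mark matches to the CHR letters or to CCAAT on either strand. A match on the opposite strand reads as TTCAAA for the main CHR letters and as ATTGG for the box.
Cdk1: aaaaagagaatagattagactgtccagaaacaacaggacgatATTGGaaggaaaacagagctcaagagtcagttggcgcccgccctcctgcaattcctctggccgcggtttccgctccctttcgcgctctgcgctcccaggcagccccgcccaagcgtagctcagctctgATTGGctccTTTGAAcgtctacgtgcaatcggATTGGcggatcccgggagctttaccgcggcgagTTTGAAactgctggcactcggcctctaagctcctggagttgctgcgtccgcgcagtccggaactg
Ccnb1: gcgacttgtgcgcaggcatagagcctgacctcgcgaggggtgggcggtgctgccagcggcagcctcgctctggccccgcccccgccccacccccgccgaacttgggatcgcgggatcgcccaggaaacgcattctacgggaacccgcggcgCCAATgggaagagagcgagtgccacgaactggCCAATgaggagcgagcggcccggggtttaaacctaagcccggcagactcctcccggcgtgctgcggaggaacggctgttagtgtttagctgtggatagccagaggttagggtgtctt
Plk1: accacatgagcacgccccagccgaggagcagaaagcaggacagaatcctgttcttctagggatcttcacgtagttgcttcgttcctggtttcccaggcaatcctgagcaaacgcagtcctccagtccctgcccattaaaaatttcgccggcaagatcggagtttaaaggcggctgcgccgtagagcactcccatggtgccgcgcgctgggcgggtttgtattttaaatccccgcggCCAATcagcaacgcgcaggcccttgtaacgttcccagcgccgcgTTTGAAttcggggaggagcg
Ect2: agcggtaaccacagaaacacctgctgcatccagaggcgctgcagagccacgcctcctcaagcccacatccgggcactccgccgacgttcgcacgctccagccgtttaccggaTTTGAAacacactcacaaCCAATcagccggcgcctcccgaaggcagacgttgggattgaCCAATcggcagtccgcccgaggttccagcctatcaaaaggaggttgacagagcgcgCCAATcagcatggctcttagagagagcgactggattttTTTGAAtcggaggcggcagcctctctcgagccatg
Smc2: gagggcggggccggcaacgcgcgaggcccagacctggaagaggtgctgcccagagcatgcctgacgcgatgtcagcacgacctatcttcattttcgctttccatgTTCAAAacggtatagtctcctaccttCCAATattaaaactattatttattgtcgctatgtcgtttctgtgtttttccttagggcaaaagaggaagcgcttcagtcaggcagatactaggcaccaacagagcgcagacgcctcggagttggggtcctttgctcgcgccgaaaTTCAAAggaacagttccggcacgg
Ncaph: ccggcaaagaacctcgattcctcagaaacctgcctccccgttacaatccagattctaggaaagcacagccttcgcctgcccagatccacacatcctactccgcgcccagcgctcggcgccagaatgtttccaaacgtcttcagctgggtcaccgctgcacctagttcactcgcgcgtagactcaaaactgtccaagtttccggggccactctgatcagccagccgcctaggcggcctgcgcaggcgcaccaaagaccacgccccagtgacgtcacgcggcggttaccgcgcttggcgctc
Cdk1 and Ect2 each hold 2 copies of the CHR letters and 3 of CCAAT, Smc2 holds 2 and 1, and Plk1 holds 1 of each. Ccnb1 holds 2 copies of CCAAT and no CHR letters, and Ncaph, whose change is given below, holds no match in this window. Only TTTGAA and TTCGAA were searched as CHR letters, so other forms of that element were not looked for in any window. A match is a description of the letters and not of binding.

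Library totals ran from 34.43 to 44.3 M counts. Levels are CPM, in which a count is divided by the library total, scaled by TMM and given in M counts, and a floor of 3 counts was 0.0646 to 0.0844 CPM, so no mitotic gene is near it. All 10 epithelial markers were detected in every library, with summed levels of 15110 to 17150 CPM in Con, 13600 to 17060 CPM in IR and 12450 to 14510 CPM in IR+CF-2. Hoxa13, a gene of the distal hindgut, was at 43.2, 1.05 and 8.07 CPM in Con, 2.73, 1.71 and 0.834 CPM in IR and 57.3, 74.9 and 56.8 CPM in IR+CF-2, so it was highest in IR+CF-2 and under 3 CPM in every IR library. It did not overlap between IR+CF-2 and either other group, so fits with Hoxa13 as a term cannot tell it apart from that group. IR+CF-2 2 stood apart in stromal markers: the mean log2 level above the mean of Con was 1.27 for fibroblast, 1.02 for endothelial and 1.59 for macrophage markers, against 0.47 to 0.65, -0.26 to -0.23 and 0.57 to 1.00 in the other IR+CF-2 libraries. Smooth muscle markers were at -0.30, -0.99 and -1.45 in IR 2, 3 and 4, against 0.47, -0.80 and 0.33 in Con and -0.34 to 0.21 in IR+CF-2. In IR against Con, 0 of these 9 markers had a log2 fold change above 0, 6 had an unadjusted p under 0.05 and 0 passed the test, and all 9 overlapped between the groups. Over all genes, 50.4% had a value above 0, 8.2% were lower at an unadjusted p under 0.05 and 0.845% were called lower. Without overlap, 22.6% of all genes lay higher and 13.8% lower. The part of this difference in the higher level of mitotic genes in IR was not tested. The share of mitochondrial counts was 5.01 to 5.52% in Con, 4.14 to 5.2% in IR and 2.7 to 3.87% in IR+CF-2.

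The first comparison asks how mitotic genes differed 84 h after 13 Gy. In every IR library 55 of the 56 genes lay above every Con library, and the exception, Pttg1, lay below every Con library. Over all 19174 genes, 22.6% lay higher without overlap and 13.8% lower. The 56 genes took 1.51, 1.05 and 2 of every 1000 counts in Con, 3.37, 3.15 and 2.93 in IR and 4.53, 2.19 and 4.5 in IR+CF-2. Their median log2 fold change from Con to IR was 1.12, with a range of -0.78 to 1.53, where 1 is a 2-fold rise and the median of all genes was 0.0062. The value was above 0 for 55 of the 56 genes, beside 50.4% of all genes. Past the test (edgeR quasi-likelihood, Benjamini-Hochberg adjusted p under 0.05 over all genes) were 3 rises, of Ncaph, Ect2 and Smc2, and 1 fall, of Pttg1. These counts stand beside 2.37% of all genes called higher and 0.845% called lower. At an unadjusted p under 0.05 there were 52 higher and 1 lower, beside 15.7% and 8.2% of all genes.

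The number past the threshold moved with single libraries although the fold changes did not change sign. It was 0 without Con 2, without Con 3, without Con 4, without IR 2, without IR 3 or without the third IR+CF-2 library, and 47 when IR+CF-2 2 was left out, a library outside both groups that enters the shared estimate of spread. It was 40 in a fit of Con and IR alone, 39 with DESeq2 and 0 with limma-voom. With the level of Hoxa13 as a term it was 0. The share of all genes called higher moved too. It was 0 to 0.274% in the fits without 1 library that gave 0, and 11.8% without IR+CF-2 2. It was 8.55% for Con and IR alone, 7.56% with DESeq2, 0.6% with limma-voom and 0.0782% with Hoxa13 as a term. The log2 fold change stayed above 0 for 55 of the 56 genes in each of the 20 alternatives. For these 55 genes every IR library lay above every Con library, so leaving out libraries could hardly change the sign.

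**Figure D1:**
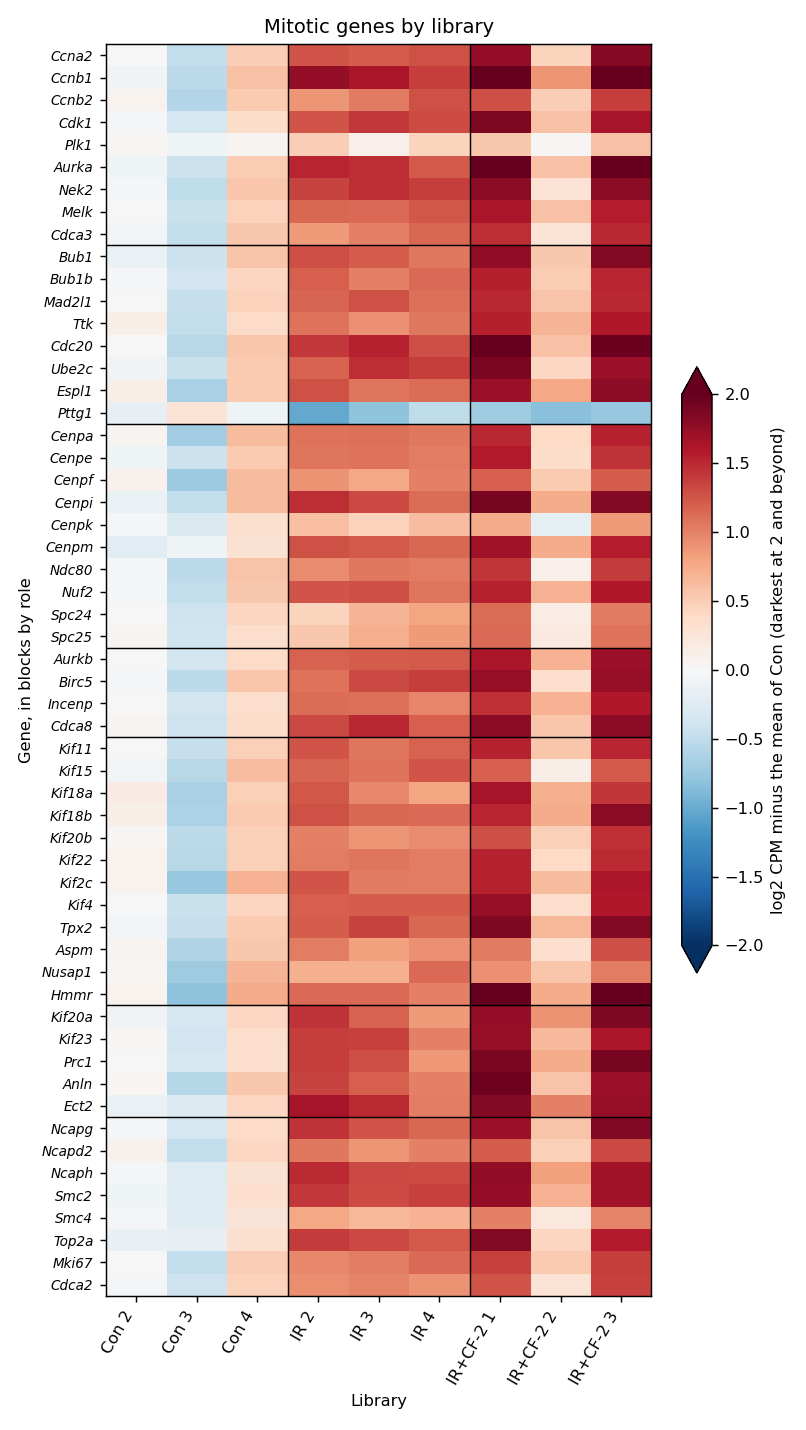
Heat map of the 56 genes (rows, in blocks by role) in the 9 libraries (columns), coloured by log2 CPM minus the mean of the Con libraries, red above and blue below, with the darkest colours at 2 and beyond. The IR columns are red for 55 genes, IR+CF-2 2 is paler than IR+CF-2 1 and 3, and Pttg1 alone is blue in all IR and IR+CF-2 libraries.

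The libraries of a group were ordered alike across the genes. The mean level over the 56 genes, as log2 CPM minus the mean of Con, was -0.01, -0.45 and 0.46 in Con, 1.12, 1.09 and 1.06 in IR and 1.53, 0.49 and 1.53 in IR+CF-2. The 3 IR libraries were close together, with a median SD over the genes of 0.1 on the log2(CPM + 0.5) scale, against 0.468 in Con and 0.585 in IR+CF-2. Over all genes the median SDs were 0.214, 0.166 and 0.275, so the mitotic genes spread less than other genes in IR and more in Con and IR+CF-2. Con 3 was the lowest and Con 4 the highest Con library for 54 of the 56 genes, a pattern seen in 15.6% of all genes.

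In IR+CF-2, library 2 was the lowest of its group for 56 of the 56 genes, beside 36.6% of all genes. IR+CF-2 1 and 3 lay above every IR library and IR+CF-2 2 below every IR library for 52 genes, beside 8.42% of all genes. So 2 libraries of the treated group were above IR and 1 was below it. IR+CF-2 2 is the library with the high stromal markers given above, and whether that bears on its mitotic genes was not tested.

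**Figure D2:**
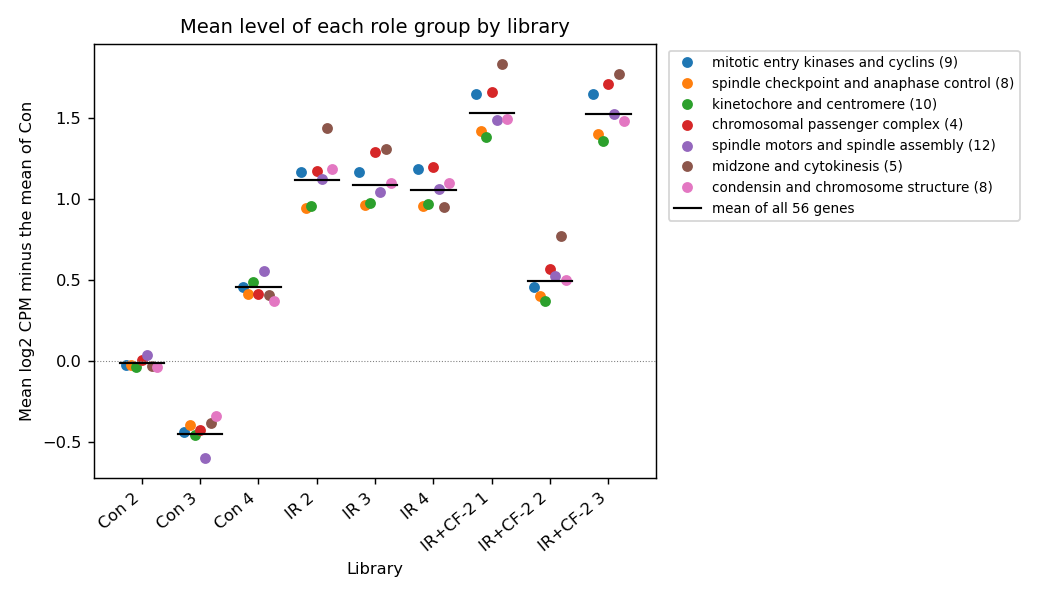
Mean log2 CPM minus the mean of Con (vertical axis) in each library (horizontal axis) for the 7 role groups (coloured points, number of genes in brackets) and for all 56 genes (black lines). The 3 IR libraries have lines at 1.06 to 1.12, IR+CF-2 1 and 3 both at 1.53, and IR+CF-2 2 at 0.49, near Con 4 at 0.46.

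Among the 9 mitotic entry kinases and cyclins, 0 passed the test in IR against Con, 8 had an unadjusted p under 0.05 and 9 lay above Con without overlap, with a median log2 fold change of 1.19. Ccnb1, which encodes cyclin B1, the partner that activates CDK1, was at 23.3, 17 and 36.7 CPM in Con, 82.4, 75.7 and 64.1 CPM in IR and 122, 44.8 and 119.8 CPM in IR+CF-2. It had the largest fold change of the 56 genes in IR (1.53 ± 0.39, adjusted p = 0.0644) and in IR+CF-2 against Con (1.90 ± 0.40, adjusted p = 0.0173). Cdk1, the kinase itself, was at 28.9, 23.1 and 37.9 CPM in Con, 70.5, 78.1 and 72.2 CPM in IR and 108, 44.1 and 92 CPM in IR+CF-2. Every IR library lay above every Con library and IR+CF-2 2 lay between Con 4 and the IR libraries, and its log2 fold change was 1.30 ± 0.31, adjusted p = 0.0542 in IR and 1.44 ± 0.31, adjusted p = 0.0182 in IR+CF-2 against Con.

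Plk1, the Polo-like kinase of spindle poles and kinetochores, had smaller differences between the groups than the rest of its role group. It was at 76.7, 70.7 and 78.4 CPM in Con, 105, 80.8 and 103 CPM in IR and 109, 76.8 and 113 CPM in IR+CF-2, and its groups lay close together, with IR 3 only just above Con 4. Its log2 fold change from Con, 0.36 ± 0.17, adjusted p = 0.229, was the smallest among the 55 genes with a value above 0, and neither that nor the 0.40 ± 0.17, adjusted p = 0.117 of IR+CF-2 passed the test. Of the exon bases of Plk1, 7.09% lie opposite a predicted gene, Gm44985, and since no strand setting is given, reads there cannot be told apart.

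Aurka, the Aurora kinase of spindle poles, was at 14.6, 11.6 and 22.2 CPM in Con, 44.7, 43.3 and 36.5 CPM in IR and 70.5, 23.3 and 71.1 CPM in IR+CF-2. Melk, a kinase found in dividing cells, was at 21, 15.6 and 29.1 CPM in Con, 47, 46.6 and 50 CPM in IR and 65.4, 31.7 and 62.9 CPM in IR+CF-2. In each of these 2 genes the IR libraries were all above Con and IR+CF-2 2 was the lowest irradiated library, yet still above Con 4. Their log2 fold changes in IR were 1.36 ± 0.40, adjusted p = 0.0866 and 1.13 ± 0.29, adjusted p = 0.0663. Against Con, 7 of the 9 genes rose in IR+CF-2, Aurka (1.77 ± 0.41, adjusted p = 0.0217) and Melk (1.29 ± 0.30, adjusted p = 0.0219) among them, and Plk1 and Cdca3 did not pass.

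Among the 8 genes of the spindle checkpoint and anaphase control, 0 rose past the test and 1, Pttg1, fell in IR against Con, with a median log2 fold change of 1.11. Mad2l1, whose product is part of the inhibitor of the anaphase-promoting complex, was at 24.2, 17.6 and 33.2 CPM in Con, 54, 58.9 and 52.2 CPM in IR and 69.1, 36 and 69.3 CPM in IR+CF-2. Ttk, the kinase that starts checkpoint signalling, was at 10.1, 6.55 and 12.1 CPM in Con, 19.8, 17.5 and 19.3 CPM in IR and 27.4, 14.9 and 28.2 CPM in IR+CF-2. Both were higher in every IR library than in any Con library, at 1.14 ± 0.28, adjusted p = 0.0615 and 0.98 ± 0.28, adjusted p = 0.0829. IR+CF-2 differed from Con in all 8, with 7 rises and 1 fall, with Cdc20, the activator of the anaphase-promoting complex, at 1.60 ± 0.39, adjusted p = 0.0253.

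The genes of securin and separase differed from Con in opposite directions. Espl1, the gene of separase, the protease that cuts cohesin, was at 14.2, 8.31 and 18.7 CPM in Con, 31.5, 27.5 and 28.3 CPM in IR and 43.4, 22.4 and 45.3 CPM in IR+CF-2. Pttg1, which encodes securin, the inhibitor that holds separase until anaphase, was at 34.7, 46.9 and 36 CPM in Con, 19, 22.1 and 27.4 CPM in IR and 23.8, 21.7 and 23.1 CPM in IR+CF-2. All IR and IR+CF-2 libraries lay below all Con libraries for Pttg1, while Espl1 was higher in every IR library than in any Con library. The log2 fold change of Pttg1 was -0.78 ± 0.17, adjusted p = 0.0469 in IR and -0.78 ± 0.17, adjusted p = 0.0192 in IR+CF-2 against Con, and that of Espl1 was 1.08 ± 0.33, adjusted p = 0.0920 and 1.43 ± 0.33, adjusted p = 0.0219. Pttg1 thus passed in both comparisons with Con, and Espl1 passed in the second of them.

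Per length, the ratio of the FPKM, the authors' value per gene length and library total, of Pttg1 to that of Espl1 was 10.7, 24.7 and 8.42 in Con, 2.63, 3.52 and 4.23 in IR and 2.40, 4.24 and 2.23 in IR+CF-2. The lowest Con ratio was above the highest ratio of the irradiated libraries. This follows from Pttg1 being lower and Espl1 higher in every irradiated library than in any Con library, and is no separate result. Within Con, Pttg1 was highest in Con 3, the library in which most of the other genes were lowest. The fall of Pttg1 in IR passed the test in 8 of the 20 alternatives, with a log2 fold change from -1.01 to -0.63 and an adjusted p from 0.00119 to 0.219.

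**Figure D3:**
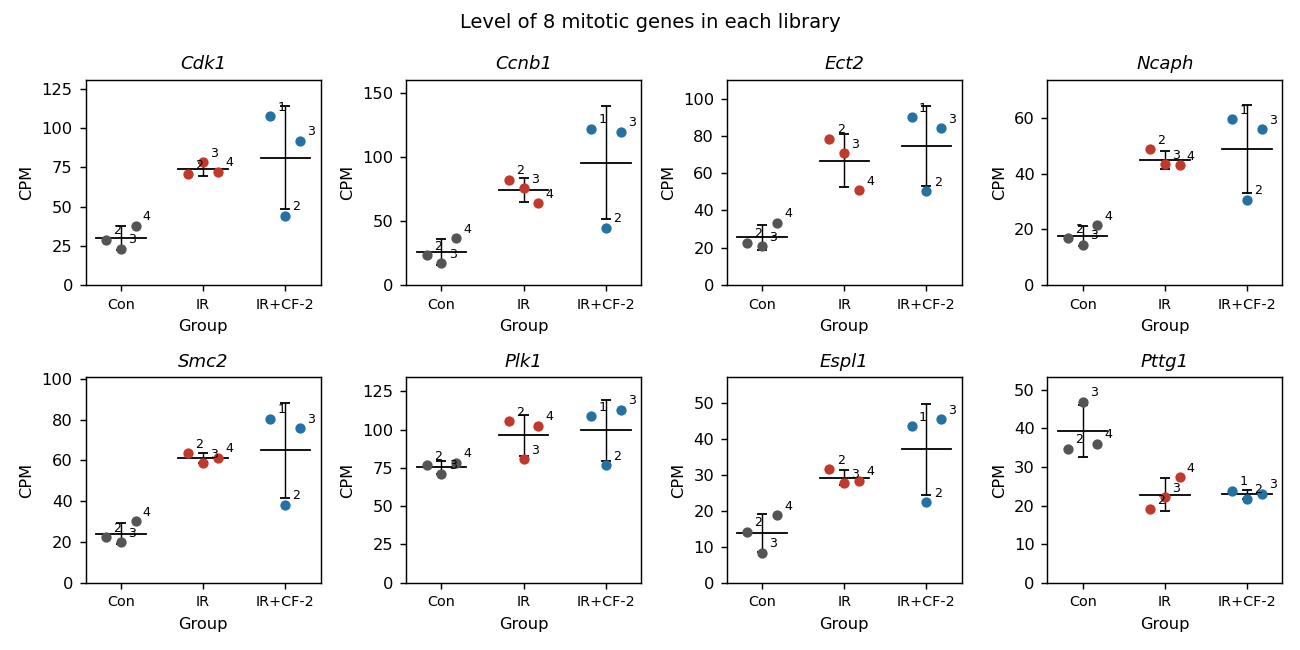
CPM (vertical axes, from 0) of 8 mitotic genes in each library, grouped as Con, IR and IR+CF-2, with library numbers beside the points and the mean and SD of each group (n = 3) as lines and bars. Pttg1 lies lower in all irradiated libraries, at 19 to 27.4 CPM against 34.7 to 46.9 CPM in Con, and the other 7 genes lie higher in IR, with IR+CF-2 2 below IR+CF-2 1 and 3.

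The kinetochore and centromere genes had the smallest median of the 7 groups in IR against Con, 0.96, with 0 of 10 past the test, 8 at an unadjusted p under 0.05 and a range of 0.54 to 1.24. Cenpm, of the inner kinetochore network, was at 3.00, 3.27 and 4.30 CPM in Con, 8.49, 8.21 and 7.79 CPM in IR and 11.3, 5.87 and 10.5 CPM in IR+CF-2. Nuf2, a subunit of the NDC80 complex that grips microtubules, was at 10.1, 7.34 and 15 CPM in Con, 24.8, 25.4 and 21.7 CPM in IR and 30.2, 16.8 and 31.7 CPM in IR+CF-2. Both were separate from Con in IR (1.21 ± 0.27, adjusted p = 0.0501; 1.15 ± 0.30, adjusted p = 0.0666). Cenpk, also of the inner kinetochore, and Spc24, another NDC80 subunit, were the 2 members of the group at an unadjusted p over 0.05, with log2 fold changes of 0.54 ± 0.29, adjusted p = 0.288 and 0.61 ± 0.29, adjusted p = 0.230. Of the 10 genes 4 rose in IR+CF-2 against Con, namely Cenpe, Cenpi, Cenpm and Nuf2, and the other 6 did not pass.

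All 4 genes of the chromosomal passenger complex, which corrects wrong attachments and later marks the midzone, were higher in every IR library than in any Con library, with log2 fold changes of 1.04 to 1.31 and 0 past the test. Aurkb, its kinase, was at 17.6, 13.7 and 23.1 CPM in Con, 39.9, 41.1 and 41.5 CPM in IR and 54.8, 28.8 and 58 CPM in IR+CF-2. Incenp, its scaffold, was at 37, 28.7 and 47.1 CPM in Con, 79.6, 79.4 and 72.5 CPM in IR and 102, 59.5 and 111 CPM in IR+CF-2. Cdca8, borealin, was at 20.8, 15 and 26 CPM in Con, 50.2, 57.4 and 46.1 CPM in IR and 69.5, 29.5 and 69.6 CPM in IR+CF-2. Their changes in IR were 1.17 ± 0.27, adjusted p = 0.0528, 1.04 ± 0.25, adjusted p = 0.0555 and 1.31 ± 0.32, adjusted p = 0.0603, just short of the threshold for the first pair. All 4 rose in IR+CF-2 against Con, from 1.27 (Incenp) to 1.45 (Cdca8), and only Birc5, survivin, had an IR+CF-2 library inside the range of Con.

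The 12 spindle genes all had an unadjusted p under 0.05 in IR against Con and 0 passed the test, with a median log2 fold change of 0.99. Kif11, the motor that pushes spindle poles apart, was at 35.6, 26.1 and 49.9 CPM in Con, 85.6, 75.3 and 81.6 CPM in IR and 104, 52.6 and 103 CPM in IR+CF-2. Tpx2, which activates Aurora A on spindle microtubules, was at 28.1, 21.3 and 42 CPM in Con, 67.8, 74.9 and 64.9 CPM in IR and 107, 46.2 and 105 CPM in IR+CF-2. Kif18a, which dampens chromosome movements at the metaphase plate, was at 5.22, 2.94 and 6.51 CPM in Con, 11, 9.10 and 8.06 CPM in IR and 14.7, 7.62 and 12.6 CPM in IR+CF-2. Each was higher in all IR libraries than in any Con library, at 1.12 ± 0.29, adjusted p = 0.0663 for Kif11, 1.18 ± 0.33, adjusted p = 0.0784 for Tpx2 and 0.94 ± 0.33, adjusted p = 0.134 for Kif18a.

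Hmmr and Kif15 were the extremes when the treated mice were set against IR. Hmmr, a partner of TPX2 on spindle microtubules, was at 18.1, 9.82 and 29 CPM in Con, 38.1, 38.1 and 34.8 CPM in IR and 69.4, 29 and 68.7 CPM in IR+CF-2, with a log2 fold change of 0.59 ± 0.40, adjusted p = 0.544. Kif15, a motor that can share the work of KIF11, was at 17.5, 12.4 and 27.9 CPM in Con, 40.9, 39 and 43.6 CPM in IR and 42, 20.1 and 42.7 CPM in IR+CF-2, with -0.24 ± 0.33, adjusted p = 0.791. Neither passed the test: IR+CF-2 2 was below the IR libraries in both genes, and in Kif15 the other IR+CF-2 libraries lay within the range of IR. Of the 12 spindle genes 9 rose in IR+CF-2 against Con, and Kif15, Aspm and Nusap1 did not pass.

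The 5 midzone and cytokinesis genes had the highest mean of the 7 groups in every irradiated library other than IR 4, where theirs was the lowest. Their mean level above Con was -0.03, -0.38 and 0.41 in Con, 1.44, 1.31 and 0.95 in IR and 1.83, 0.77 and 1.77 in IR+CF-2. IR 4 was the lowest IR library here, unlike in the other groups, and IR+CF-2 2 was the lowest of its group. Ect2, which activates RhoA at the cell equator, was at 22.8, 20.7 and 33.4 CPM in Con, 78.6, 70.7 and 51 CPM in IR and 89.9, 50.3 and 84.2 CPM in IR+CF-2 and rose in IR (1.38 ± 0.27, adjusted p = 0.0401). Kif23, of the centralspindlin complex, was at 30.3, 22.9 and 37.9 CPM in Con, 77.5, 77.1 and 59.8 CPM in IR and 99.7, 46.7 and 91.6 CPM in IR+CF-2, and Prc1, which bundles midzone microtubules, was at 18.7, 14.6 and 23.7 CPM in Con, 48.5, 45.5 and 34.2 CPM in IR and 68.8, 31.3 and 69.3 CPM in IR+CF-2. Neither overlapped with Con in IR, at 1.23 ± 0.29, adjusted p = 0.0537 and 1.17 ± 0.31, adjusted p = 0.0685.

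Kif20a, the motor that carries the passenger complex to the midzone, was at 12.6, 10.4 and 17.6 CPM in Con, 36.2, 30.1 and 23.8 CPM in IR and 44.9, 24.7 and 48.2 CPM in IR+CF-2. It was separate from Con (1.15 ± 0.29, adjusted p = 0.0633), but 29.3% of its exon bases lie opposite Cdc23, so its reads there cannot be told apart from those of Cdc23. All 5 genes rose in IR+CF-2 against Con and none overlapped with Con, from 1.39 (Kif23) to 1.57 (Prc1), and IR+CF-2 2 was above every Con library in each.

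Condensin and chromosome structure held 2 of the 3 genes that rose in IR. Ncaph, the kleisin subunit of condensin I, was at 16.8, 14.5 and 21.4 CPM in Con, 48.8, 43.4 and 43 CPM in IR and 59.6, 30.7 and 55.9 CPM in IR+CF-2. Smc2, an ATPase core of both condensins, was at 22.3, 19.9 and 30.1 CPM in Con, 63.6, 58.7 and 61.4 CPM in IR and 80.6, 38.3 and 76 CPM in IR+CF-2. In both genes all 3 IR libraries were above 2 times the mean of Con and even IR+CF-2 2 was above Con 4. Their log2 fold changes were 1.36 ± 0.25, adjusted p = 0.0353 and 1.35 ± 0.27, adjusted p = 0.0411 in IR, and 1.47 ± 0.25, adjusted p = 0.0106 and 1.43 ± 0.27, adjusted p = 0.0136 in IR+CF-2 against Con. The rise in IR passed in 12 of the 20 alternatives for Ncaph, in 9 for Smc2 and in 8 for Ect2.

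Ncapg, another condensin I subunit, was at 12, 9.54 and 15.9 CPM in Con, 33.3, 29.4 and 27.1 CPM in IR and 40.3, 18.1 and 44.2 CPM in IR+CF-2, with a log2 fold change of 1.26 ± 0.32, adjusted p = 0.0635 in IR. Top2a, the topoisomerase that untangles sister chromatids, was at 99, 98.1 and 137 CPM in Con, 291, 274 and 257 CPM in IR and 391, 149 and 331 CPM in IR+CF-2, and Mki67, the gene of the Ki-67 proliferation marker that coats mitotic chromosomes, was at 134, 95.4 and 189.5 CPM in Con, 263, 274 and 296 CPM in IR and 346, 193 and 351 CPM in IR+CF-2. The IR libraries of all 3 genes lay above Con. The changes in IR were 1.30 ± 0.31, adjusted p = 0.0565 for Top2a and 0.99 ± 0.28, adjusted p = 0.0809 for Mki67, neither past the test. All 8 genes of this group rose in IR+CF-2 against Con, with Smc4 lowest at 0.77.

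**Figure D4:**
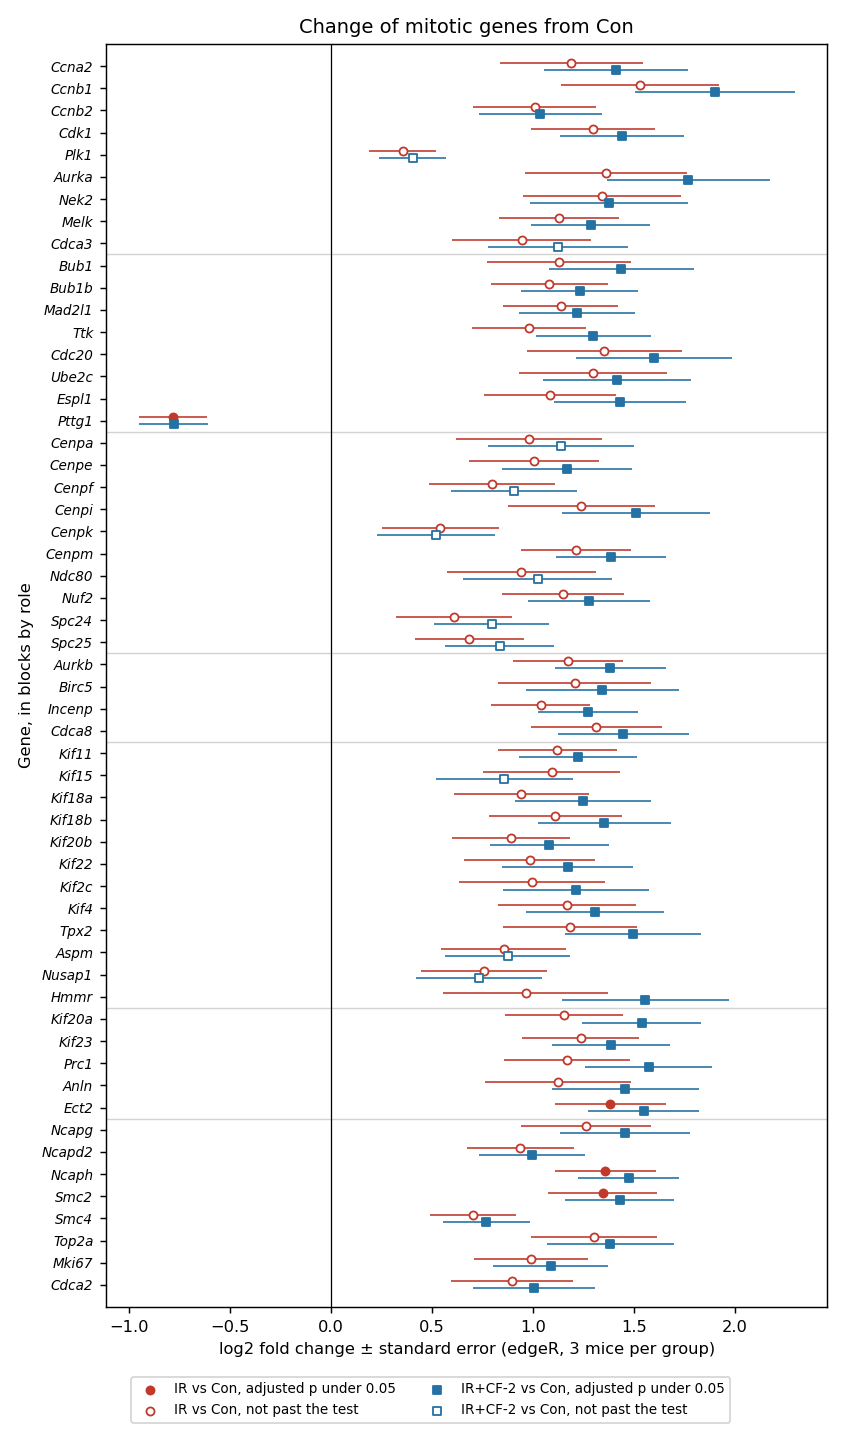
Log2 fold change with its standard error (horizontal axis, edgeR, 3 mice per group) of the 56 genes (vertical axis) in IR against Con (red circles) and IR+CF-2 against Con (blue squares), filled where the adjusted p is under 0.05. Of the red circles 4 are filled, of the blue squares 45, and Pttg1 alone lies left of 0.

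The second comparison asks whether CF-2 given with irradiation altered the mitotic genes. None of the 56 genes passed the test with edgeR in IR+CF-2 against IR, 0 had an unadjusted p under 0.05, and 0 passed with DESeq2 or limma-voom. Beside this, edgeR called 0.0574% of all genes higher and 0.245% lower, and 6.48% and 8.08% had an unadjusted p under 0.05. Of all 19174 genes DESeq2 called 468 higher and 537 lower, and limma-voom 13 and 49. All 56 genes overlapped between the groups, where 7.26% of all genes lay higher and 10.3% lower without overlap. The median log2 fold change was 0.15, with a range of -0.24 to 0.59, and 53 of the 56 values were above 0, beside 51.7% of all genes. For Mki67 the difference was 0.10 ± 0.28, adjusted p = 0.906, for Cdk1 0.14 ± 0.30, adjusted p = 0.865, for Ccnb1 0.37 ± 0.38, adjusted p = 0.706 and for Pttg1 0.00 ± 0.17, adjusted p = 0.996. With standard errors of this size, a difference in either direction is not shown and not shown to be absent.

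That median rested on single libraries. It was 0.44 without IR+CF-2 2, with 56 values above 0 and 16 at an unadjusted p under 0.05, -0.0038 when IR+CF-2 1 was left out and 0.0012 when IR+CF-2 3 was. Without Con 3, IR 4 and IR+CF-2 2 together it was 0.43, with 34 genes at an unadjusted p under 0.05 and 0 past the test. IR+CF-2 2 was the lowest of its group for all 56 genes, so leaving it out raises the treated mean and narrows its spread. Fits without it therefore cannot show whether CF-2 altered these genes. How many of all genes had an unadjusted p under 0.05 in those fits was not counted. With Hoxa13 as a term the median was -0.16 and 7 values were above 0. In none of the 20 alternatives did any of the 56 genes pass.

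The third comparison sets IR+CF-2 against Con, so irradiation and CF-2 cannot be told apart in it, and it shares the Con libraries with the first comparison. Of the 56 genes 44 rose and 1, Pttg1, fell, beside 11.2% of all genes called higher and 7.95% called lower. The median log2 fold change was 1.29, with a range of -0.78 to 1.90, and the median of all genes was 0.0236. Without overlap 32 lay above Con and 1 below it, beside 20.1% and 19.6% of all genes, and the other 23 overlapped. IR+CF-2 2 was the lowest library of its group in those 23, as in all 56 genes. The number past the test was 3 without Con 2, 2 without Con 3, 24 without Con 4, 27 without IR 3, and 4, 55 and 8 when IR+CF-2 1, 2 or 3 was left out. It was 0 with Hoxa13 as a term, which did not overlap between these groups, and 12 in a fit of these groups alone. In each of the 20 alternatives 55 of the 56 fold changes were above 0. Over all genes the share called higher was 2.49% without Con 2, 3.17% without Con 3, 1.82% without Con 4 and 6.87% without IR 3. It was 2.63, 18.3 and 4.13% when IR+CF-2 1, 2 or 3 was left out. With Hoxa13 as a term it was 0%, and for these groups alone 7.05%.

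**Figure D5:**
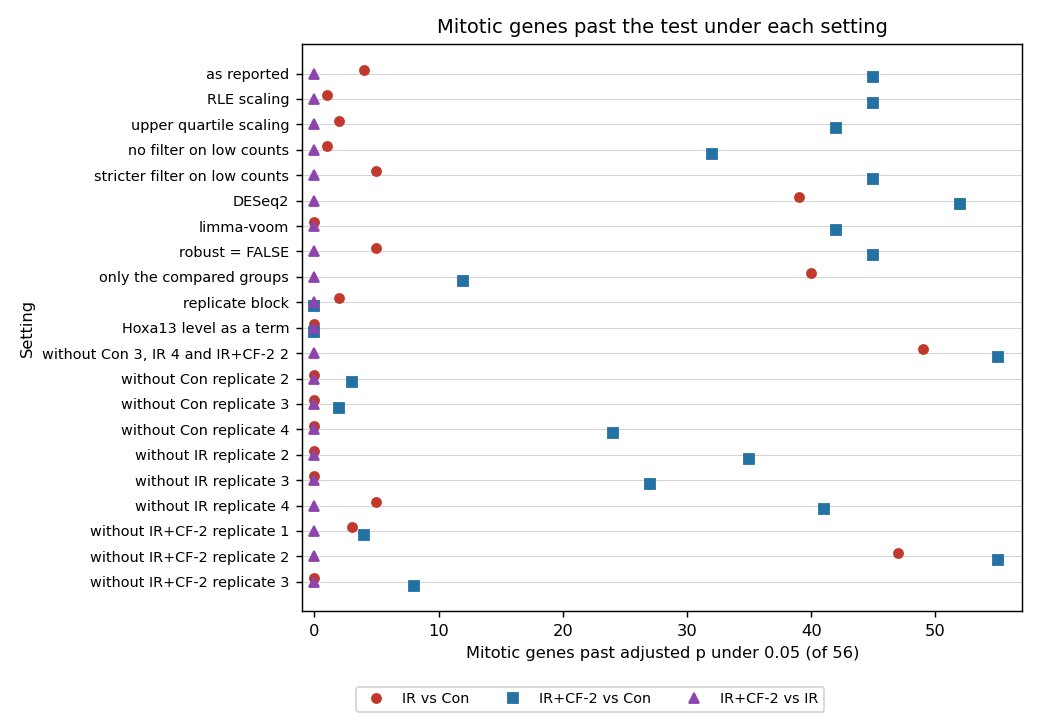
Number of the 56 genes past an adjusted p under 0.05 (horizontal axis) under the reported setting and each alternative (vertical axis) for IR against Con (circles), IR+CF-2 against Con (squares) and IR+CF-2 against IR (triangles). The first runs from 0 to 49, the second from 0 to 55, and the third is at 0 in every row.

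Per length, Plk1 had the highest mean level of the 56 genes, 41.2 FPKM over the 3 groups, and Kif18a the lowest, 0.889 FPKM. Plk1 led in Con, while Cdc20 led in IR 3, IR+CF-2 1 and IR+CF-2 3. The ratio of the FPKM of Ccnb1 to that of Ccnb2, its sister cyclin, was 0.307, 0.351 and 0.351 in Con, 0.614, 0.505 and 0.363 in IR and 0.688, 0.441 and 0.633 in IR+CF-2. So each irradiated library had a higher share of cyclin B1 to cyclin B2 transcript than any Con library, by a small margin in IR 4. The ratio of Aurka to Aurkb, 0.97 to 1.12 in Con, 1.02 to 1.3 in IR and 0.941 to 1.5 in IR+CF-2, overlapped between the groups.

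Markers of other cell types, some of which divide, are given beside these values. Their counts past the test stand beside 2.37% of all genes called higher and 0.845% called lower in IR against Con, and 11.2% and 7.95% in IR+CF-2 against Con. Without Con 2, Con 4, IR 2 or IR 3, 0 of all genes were called higher in IR against Con, so marker rises in IR were lost there. Of 12 markers of crypt base and progenitor cells 11 were tested, Olfm4 being at 0 in some libraries. Their summed level was 1067 to 1250 CPM in Con, 1626 to 1848 CPM in IR and 968 to 1086 CPM in IR+CF-2, and 4 of the 11, Sox9, Cd44, Ephb3 and Cdca7, rose in IR. These 4 were named after their values were seen. In IR+CF-2 against Con 6 of the 11 rose and 1 fell while the sum did not rise above Con, unlike that of the mitotic genes. The part of these cells in the mitotic genes' result was not tested.

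Of 11 tested T and NK cell markers 5 fell in IR, with summed levels of 30.8 to 57.5 CPM in Con, 12.4 to 16.2 CPM in IR and 10.2 to 13.1 CPM in IR+CF-2, and Cd8b1 was at 0 in some libraries. Neutrophil markers summed to 2.31 to 4.06 CPM in Con, 16.1 to 78.1 CPM in IR and 211 to 337 CPM in IR+CF-2, with 1 of 8 called higher in IR and 8 of 8 in IR+CF-2 against Con, and S100a8, S100a9, Cxcr2, Retnlg and Mmp8 were at 0 in some libraries. Their part in the mitotic genes' change was not tested.

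Other genes of the pathway, from lists set by their textbook roles, gave 15 rises and 0 falls among 143 tested in IR against Con, beside 2.37% of all genes called higher and 0.845% called lower. By list, 4 of 29 kinetochore genes, 1 of 16 cohesin and shugoshin genes, 6 of 27 spindle and cytokinesis genes, 1 of 17 subunits and regulators of the anaphase-promoting complex, 0 of 21 transcriptional regulators, 3 of 22 genes of mitotic entry control and CDK inhibition, and 0 of 11 centrosome genes rose. The medians were 0.89, 0.33, 1.04, 0.23, 0.45, 0.49 and 0.38 in that order, beside 0.0062 over all genes. Lin54 was not found by that symbol and Cdkn2a was left out by the filter. In IR against Con, 0 of all genes were called higher without Con 2, without Con 4, without IR 2 or without IR 3. Every rise in IR given here and below for these lists was thus lost when any of those libraries was left out.

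Of the kinetochore genes, Nsl1 of the MIS12 complex (1.06 ± 0.21, adjusted p = 0.0413), Zwilch of the complex that recruits dynein (1.37 ± 0.27, adjusted p = 0.0413), and Cenph (1.10 ± 0.24, adjusted p = 0.0480) and Cenpt (1.03 ± 0.23, adjusted p = 0.0491) of the inner kinetochore rose in IR. Cdca5, sororin, which locks cohesin on sister chromatids, rose (1.26 ± 0.25, adjusted p = 0.0401), and the cohesin core gene Smc3 was at 0.33 ± 0.11, adjusted p = 0.101 without passing. The shugoshin Sgo1 (1.03 ± 0.30, adjusted p = 0.0832) and the cohesin acetyltransferase gene Esco2 (0.98 ± 0.31, adjusted p = 0.103) did not pass in IR. All 8 of these genes rose in IR+CF-2 against Con, but they were named for passing in at least 1 comparison. By list, 19 of 29 kinetochore genes and 4 of 16 cohesin and shugoshin genes rose there, beside 11.2% of all genes.

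Psrc1, a microtubule protein and p53 target, had the largest change of these lists, at 4.38, 2.38 and 4.81 CPM in Con, 40.2, 42.9 and 12.4 CPM in IR and 29.7, 30.1 and 32.1 CPM in IR+CF-2, and rose in IR (3.04 ± 0.46, adjusted p = 0.0271). Gtse1, another microtubule protein that is a p53 target, was at 8.10, 6.47 and 9.44 CPM in Con, 46.7, 41.2 and 22.2 CPM in IR and 53.7, 26.1 and 51.2 CPM in IR+CF-2 and rose (2.20 ± 0.35, adjusted p = 0.0296). In both genes IR 4 was the lowest IR library, yet above all Con libraries. Pbk, a mitotic kinase (1.11 ± 0.21, adjusted p = 0.0355), and Ncapg2, a condensin II subunit (1.08 ± 0.19, adjusted p = 0.0326), rose as well, with Cep55 and Trip13, named after their values were seen.

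Of the anaphase-promoting complex Cdc27 rose by 0.55 ± 0.12, adjusted p = 0.0463 in IR, while Cdc16 (0.23 ± 0.10, adjusted p = 0.216), Cdc23 (0.38 ± 0.13, adjusted p = 0.121) and the small subunit gene Anapc13 (-0.42 ± 0.17, adjusted p = 0.182) did not pass. In IR+CF-2 against Con, Cdc16, Cdc23 and Cdc27 rose and Anapc13 fell (-0.84 ± 0.17, adjusted p = 0.0171). Of the 17 genes of that list 6 rose and 1 fell there, beside 11.2% and 7.95% of all genes. Cdc23 shares 1271 exon bases with Kif20a on the opposite strand, so its reads there cannot be told apart from those of Kif20a. The centrosome genes Nedd1, Tubg1, Plk4 and Cep192 did not pass in IR, from 0.38 for Nedd1 to 1.25 for Plk4. All 4 rose in IR+CF-2 against Con, the comparison for which they were named. Of the 11 centrosome genes 6 rose in it.

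Of the 21 regulators of mitotic transcription, 16 had a log2 fold change above 0 in IR and 12 lay above Con without overlap, beside 50.4% and 22.6% of all genes. Mybl2 and Foxm1, described here, did not pass in IR. Mybl2, the B-MYB that joins MuvB, was at 7.35, 10.3 and 11.4 CPM in Con, 52.1, 46.2 and 30.5 CPM in IR and 78.3, 14.9 and 66.2 CPM in IR+CF-2, with 2.15 ± 0.53, adjusted p = 0.0590 in IR and 2.46 ± 0.53, adjusted p = 0.0190 in IR+CF-2 against Con. Foxm1 was at 17.7, 13.5 and 25.4 CPM in Con, 40.2, 38.9 and 39.1 CPM in IR and 57.9, 26.5 and 59.4 CPM in IR+CF-2, with 1.06 ± 0.32, adjusted p = 0.0896 and 1.35 ± 0.32, adjusted p = 0.0239. In both genes IR+CF-2 2 was the lowest irradiated library, as among the 56 genes. E2f7, a repressor of E2F targets, and Tfdp1, an E2F partner, rose in IR+CF-2 against Con (1.68 ± 0.33, adjusted p = 0.0153; 1.05 ± 0.23, adjusted p = 0.0190).

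Of the genes that restrain the cycle, Trp53 was at 42.9, 45.8 and 44.6 CPM in Con, 86.5, 81.6 and 60.4 CPM in IR and 87.5, 69.8 and 81.5 CPM in IR+CF-2 and rose in IR (0.78 ± 0.15, adjusted p = 0.0377). Ccng1, cyclin G1, a p53 target, was at 92.1, 99.3 and 99.6 CPM in Con, 426, 428 and 197 CPM in IR and 378, 299 and 369 CPM in IR+CF-2 and rose (1.85 ± 0.27, adjusted p = 0.0271). Cdkn1a, the CDK inhibitor p21, was at 216, 258 and 201 CPM in Con, 311, 395 and 284 CPM in IR and 426, 337 and 363 CPM in IR+CF-2, separate from Con in IR but not past the test (0.55 ± 0.17, adjusted p = 0.0931), and it rose in IR+CF-2 against Con (0.74 ± 0.17, adjusted p = 0.0213). All 3 genes were higher in each irradiated library than in any Con library, and IR 4 was the lowest IR library in each, as for Psrc1 and Gtse1.

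Cdkn1c, the CDK inhibitor p57, was the single gene of the 143 that passed in IR+CF-2 against IR, beside 0.0574% of all genes called higher and 0.245% called lower. It was at 7.42, 7.47 and 5.70 CPM in Con, 19.5, 24 and 17.4 CPM in IR and 3.43, 4.00 and 3.77 CPM in IR+CF-2, with IR above and IR+CF-2 below Con, and no overlap between any of the groups. It rose in IR (1.56 ± 0.19, adjusted p = 0.0227) and was lower in IR+CF-2, at -2.44 ± 0.19, adjusted p = 0.00336 against IR and -0.88 ± 0.19, adjusted p = 0.0182 against Con. Cdc25b, a phosphatase that activates CDK1, was at 0.88 ± 0.24, adjusted p = 0.0771 in IR and rose in IR+CF-2 against Con (1.11 ± 0.25, adjusted p = 0.0200). Against Con, 71 of the 143 genes rose in IR+CF-2 and 5 fell, beside 11.2% of all genes called higher and 7.95% called lower. The falls were of Anapc13, Cdkn1c and, named after their values were seen, E2f5, Cdkn1b and Cdkn2b.

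Overlapping annotation limits a few of these values. Of the 56 genes, which lie on 17 chromosomes, 16 share exon bases with another gene in GENCODE M21 on GRCm38, and 6 share over 10% of theirs with a gene on the opposite strand: Kif20a, Ube2c, Kif4, Ncapg, Prc1 and Ccna2. Espl1 (chr15:102296266-102324357, plus strand), Pttg1 (chr11:43420250-43426251, minus strand), Ect2 (chr3:27097222-27153878, minus strand), Smc2 (chr4:52439243-52488260, plus strand) and Ncaph (chr2:127103809-127133954, minus strand) share none.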

How the data were processed

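The deposited table holds raw counts per gene and library and FPKM values, per the file headers. HISAT2, featureCounts and DESeq2 are the tools in the submitters' processing notes, with the builds GRCm38 and mm10. Strand setting and treatment of multi-mapped reads are not stated. FPKM served for levels between genes and counts for tests.

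One fit in edgeR 4.0.16 (R 4.3.3) took the counts of all 9 libraries, with group as its term, TMM scaling, filterByExpr (14365 genes left out) and robust quasi-likelihood estimation. P-values are 2-sided and adjusted over 19174 genes, with a threshold of 0.05. A standard error is the size of the log2 fold change over the root of F. The common coefficient of variation was 30.6%, and log2 CPM have a prior count of 2. Floors cover counting error only. The steps were tested on simulated data. The alternatives changed scaling (RLE, upper quartile), filter (none, or 1 CPM in 3 libraries) and tool (DESeq2 1.42.0, limma-voom of limma 3.58.1), or used robust = FALSE, only the compared groups, library number as a block, Hoxa13 as a term, leaving out each library, and leaving out Con 3, IR 4 and IR+CF-2 2 together.

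The members, lists, rules and alternatives were chosen with earlier results of these data known. Shown library by library are 5 common markers, the 2 genes of each role with the smallest unadjusted p in IR against Con, up to 20 genes past the test, and the extremes of fold change and FPKM. Of further lists up to 4 genes past the test in any comparison are named, with Foxm1, Mybl2, Cdkn1a and Trp53 always. That such a gene passed somewhere is therefore not a result. Cell type markers are given by level and by count past the test, no cell type is called from them, and those of B cells are not reported here. No 2 libraries held identical counts, and the labels name no batch.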

Additional observations from a re-analysis of the deposited data

How the results depend on the processing

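In IR against Con the count of mitotic genes past the test, 4 as reported, was 1 with RLE scaling, 2 with upper quartile scaling, 1 with no filter, 5 with the stricter filter or with robust = FALSE, 39 with DESeq2 (52 for IR+CF-2 against Con), 0 with limma-voom, 40 in a fit of the compared groups only, 0 with Hoxa13 as a term and 49 with Con 3, IR 4 and IR+CF-2 2 left out. With the replicate block it was 2. Leaving out 1 library gave 0 to 47. In IR+CF-2 against Con the count, 45 as reported, was 12 in a fit of the compared groups only, 0 with Hoxa13 as a term and 0 with the replicate block, and leaving out 1 library gave 2 to 55. Under the other settings, leaving out single libraries aside, it was 32 to 55. In IR+CF-2 against IR it was 0 throughout. Over all genes the share called higher moved as well, from 0 to 15.1% in IR against Con and from 0 to 20.3% in IR+CF-2 against Con. Con 3 and IR+CF-2 2 were the lowest of their groups for most of the 56 genes, so leaving out both narrows the spread of these genes. Why the counts differ between settings was not tested. The medians were 0.90 to 1.39, -0.16 to 0.44 and 1.07 to 1.55 for IR against Con, IR+CF-2 against IR and IR+CF-2 against Con over all 20 alternatives, and with TMM, RLE and upper quartile scaling the median of all genes stayed within 0.1 of 0 on the log2 scale. The libraries share only a number: correlations of deviations from the group means ran from 0.04 to 0.259 over same-numbered pairs, and nothing in the labels ties them. Each Con library correlated best with the IR library of its own number (0.259, 0.108 and 0.089), a hint from the data and not from the design, and this did not hold for every pair with IR+CF-2. Of single genes only values of IR+CF-2 against IR changed sign, none past the test in either direction. With Hoxa13 as a term they were -0.25 for Mki67, -0.0719 for Cdk1, -0.0796 for Ccnb1, -0.014 for Plk1 and -0.17 for Hmmr. Hoxa13 did not overlap between these groups, so those signs cannot show an effect of CF-2. With the replicate block they were -0.21 for Top2a and -0.0834 for Cdk1, with limma-voom -0.0323 for Top2a, and with Con 3, IR 4 and IR+CF-2 2 left out the value for Kif15 was 0.0846. Leaving out 1 library gave -0.0404 to 0.33 for Mki67, -0.19 to 0.40 for Top2a, -0.11 to 0.44 for Cdk1, -0.0524 to 0.21 for Plk1, -0.11 to 0.15 for Pttg1 and -0.41 to 0.043 for Kif15. Of the other values for single named genes under an alternative, 961 kept their side of the threshold, 207 lost it and 92 gained it, all with the same sign. Depth left 0 of the 56 genes below 115 counts in any library, and there were 3 mice in each group.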

Other observations

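Genes of DNA replication, which are used in S phase before mitosis, were ordered by library much as the mitotic genes were in the irradiated groups. Of 22 such genes all lay above Con without overlap in IR, beside 22.6% of all genes, and 9 rose past the test, among them Mcm3 (1.54 ± 0.31, adjusted p = 0.0411) of the replicative helicase and Rrm1 (1.40 ± 0.25, adjusted p = 0.0339) of ribonucleotide reductase, both named after their values were seen. These 9 rises were lost without Con 2, without Con 4, without IR 2 or without IR 3, where 0 of all genes were called higher. In IR+CF-2 against Con 21 of the 22 rose, and in IR+CF-2 against IR 0 passed. Over all genes 2.37% were called higher in IR against Con and 11.2% in IR+CF-2 against Con. In IR+CF-2 against IR 0.0574% of all genes were called higher and 0.245% lower. Their mean level above the mean of Con was -0.16, 0.19 and -0.04 in Con, 1.18, 1.19 and 0.96 in IR and 1.61, 0.62 and 1.51 in IR+CF-2. IR+CF-2 2 was again the lowest irradiated library, but within Con the order differed: Con 3, the lowest library for 54 of the 56 mitotic genes, had the highest mean of the replication genes.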
